A study of Mus musculus with 4 samples.

Results

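Collagens are the main structural proteins of the extracellular matrix, and the collagen genes of embryonic mouse hearts were described here chain by chain and cell type by cell type. The members were all rows of the merged count table whose name consists of Col, a number, the letter a and a number, with joined gene names that contain such a symbol counted once. This gave 45 rows of 30268 genes, 43 with a single symbol and 2 with a joined name, and the members held 223029 unique molecular identifiers (UMIs, each standing for 1 captured transcript), or 0.486% of all UMIs. The ceramide transfer gene Col4a3bp is no collagen and was not counted. Hearts of the embryonic stages E13.5 and E14.5 (days after conception) had been dissociated and profiled by Drop-seq, a droplet method that reads the 3′ ends of transcripts of single cells. There was 1 library per genotype and stage, 4 libraries in all.

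All 4 groups carried Wt1 CreERT2/+, a tamoxifen-inducible Cre recombinase driven from the Wt1 locus, which is active in the epicardium, and Rosa26mTmG/+, a membrane reporter that switches from red to green where Cre has acted. The control libraries carried these alleles alone, and the knockout (Lats1/2 CKO) libraries also carried Lats1/2 F/F, floxed alleles of the kinases that hold back YAP and TAZ in the Hippo pathway. Deletion can therefore occur only in cells in which Wt1-driven Cre was active when induced and in their descendants. How many hearts each library pooled is not given in the sources used here. Values in every library are given in the order control E13.5, CKO E13.5, control E14.5 and CKO E14.5. Lats2 was at 69.9, 33.9, 77.9 and 49.4 counts per 1000000 UMIs of the class (CPM) in epicardial cells and at 34.9, 24.03, 52.3 and 30.8 CPM in fibroblasts. A 3′ tag may lie outside the deleted part of the gene, so these values do not check the deletion. Lats1 was at 20.04 to 34.6 CPM in epicardial cells and 7.70 to 34.9 CPM in fibroblasts, on 2 to 19 UMIs per library. The reporter transcript Egfp was at 85.7, 619.8, 25.98 and 595 CPM in epicardial cells and at 55.5, 186, 43.55 and 173 CPM in fibroblasts, with both CKO libraries above both controls in each class, while the highest value in a library of another class was 68.5 CPM.

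Each collagen molecule is a triple helix of 3 chains, drawn from 1 gene or from several. Fibrillar chains (types I, II, III, V, XI, XXIV and XXVII) form the fibrils that give tissue its tensile strength, with types V and XI at the core of the fibril. Type IV chains build the sheet of the basement membrane, type VI chains the beaded filaments around cells, type VIII a network beneath endothelium, and types IX, XII, XIV and XVI decorate fibrils. Types XV and XVIII sit in basement membranes, and types XIII, XVII, XXIII and XXV cross the plasma membrane. In the heart, fibroblasts that descend largely from the epicardium make most of the interstitial matrix, while endothelial cells lie on a type IV sheet.

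After cells with fewer than 500 UMIs were removed, 21495 of 24849 deposited cells remained, with a median of 1588.5 and 2015 UMIs per cell at E13.5 (control, then CKO) and 955 and 1035 at E14.5, so stage and depth cannot be told apart. Cells were placed in 8 classes by UMIs of marker genes that include no collagen: epicardial, fibroblast, valve mesenchyme, mural (pericytes and smooth muscle), coronary endothelial, endocardial, cardiomyocyte and macrophage. The classes held 15776 cells, while 4710 cells met no gate. The gate thresholds were set after marker counts by cluster had been seen, and 397 cells fell 1 UMI short of a gate. Between 6 and 8 cell barcodes per library also occurred in another library. Counts were summed per class and library, so that the 4 libraries, not the cells, were the replicates. Epicardial sums rested on 60 to 187 cells per library and fibroblast sums on 153 to 291. The SD over 4 libraries therefore includes differences of stage and genotype. The class test has library as a block, so its residual is how differences between classes vary over the libraries. It has 21 residual degrees of freedom, pooled over the 8 classes. In the genotype fit the residual is the difference of the genotype effect between stages. Neither test measures variation between hearts.

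Collagen made up the largest share of transcripts in the epicardium and in fibroblasts. Over the 4 libraries, 1.78%, 1.77%, 2.997% and 1.98% of epicardial UMIs came from collagen genes, and the mean over libraries was 2.13% ± 0.585 (SD, n = 4). Fibroblasts were at 1.43%, 1.96%, 1.91% and 2.19%, with a mean of 1.87% ± 0.321. Epicardial cells were thus higher in both control libraries and fibroblasts in both CKO libraries, and the epicardial mean was raised by control E14.5, a sum of 60 cells. The 10 listed fibroblast markers summed to 4461, 2941.5, 4286 and 3099 CPM in epicardial cells, against 5808 to 6106 CPM in fibroblasts. The 13 epicardial markers summed to 129 to 270 CPM in fibroblasts. Whether fibroblast RNA adds to the epicardial share was not tested. Valve mesenchyme stood at 0.9499% ± 0.0827 and mural cells at 0.846% ± 0.101, with ranges that overlapped each other and lay below those of the first pair. Endocardial cells were at 0.468% ± 0.0191 and coronary endothelial cells at 0.381% ± 0.0548. Cardiomyocytes, at 0.100% ± 0.0247, and macrophages, at 0.0845% ± 0.0335, were lowest. Droplet libraries hold free RNA, and macrophages are not known as fibril producers, so the levels in these classes serve as the background against which the others are read.

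**Figure D1:**
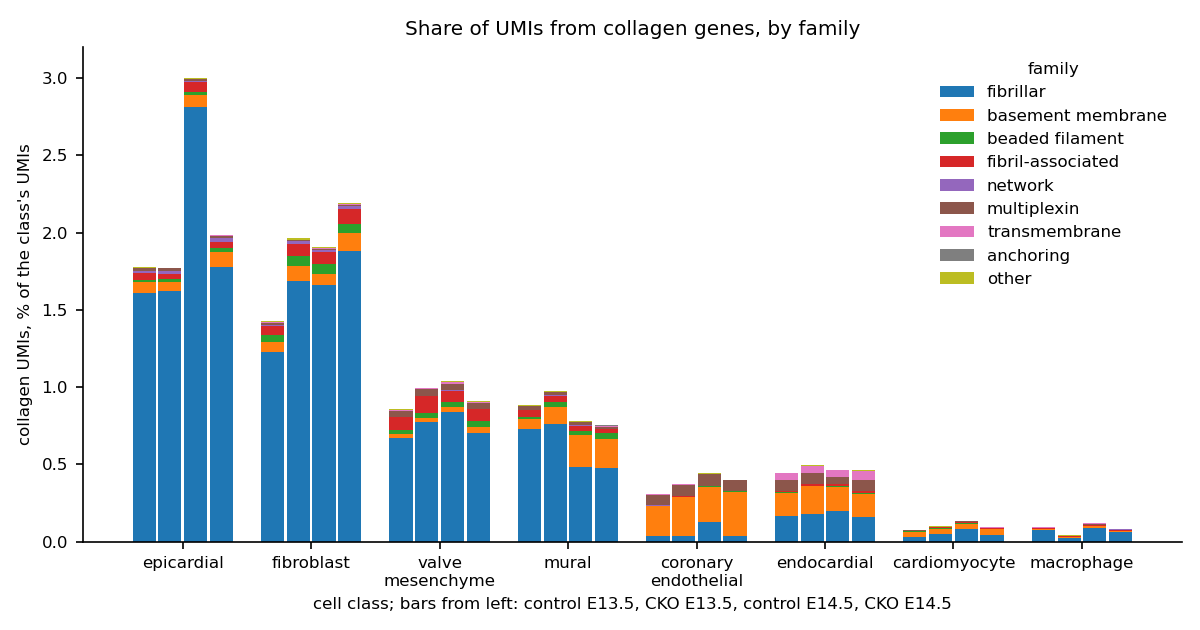
Share of each class's UMIs that came from collagen genes, in percent, with 1 stacked bar per library (from the left control E13.5, CKO E13.5, control E14.5 and CKO E14.5 in each class) and colours for the collagen families. Epicardial and fibroblast bars are the tallest and mostly fibrillar, and the bars of coronary endothelial cells are mostly basement membrane chains.

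The make-up of that collagen changed from class to class. Fibrillar chains gave 91.4% of collagen UMIs in epicardial cells, 86.2% in fibroblasts and 78.5% in valve mesenchyme (means over libraries). They gave 37.8% in endocardial cells and 15.1% in coronary endothelial cells. Basement membrane chains gave 63.2% of collagen UMIs in coronary endothelial cells and 33.9% in endocardial cells. In mural cells they gave 7.43%, 11.4%, 27.02% and 25.3%, with fibrillar shares of 82.6%, 78.05%, 61.9% and 63.1%, so that the mural make-up differed by stage, and endothelial markers were higher in the same E14.5 mural sums. The multiplexins, types XV and XVIII, added 19.1% in coronary endothelial and 13.47% in endocardial cells, and transmembrane collagens another 10.8% in endocardial cells. Fibril-associated chains reached 8.89% in valve mesenchyme. These are shares of 3′ tags, which do not scale with transcript length.

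Of the 45 members, 29 passed the filter on low counts and were tested across classes, with 9730 genes in the same fit (edgeR's quasi-likelihood test on summed counts with library as a block, Benjamini-Hochberg adjusted p under 0.05). They were 8 of 12 fibrillar rows, 4 of 6 basement membrane, 4 of 6 beaded filament, 6 of 10 fibril-associated, both network, both multiplexin, 2 of 4 transmembrane and 1 of 2 other chains. The anchoring fibril chain Col7a1 did not pass. The 16 that did not pass had 2 to 422 UMIs over all kept cells, and the lowest that passed had 166. Because a chain can pass through the class where it is high, the counts below describe these 29 and are read beside the share of all tested genes called. The p-values of single chains in the class tests carry the same limit and are descriptive, also where this is not repeated below.

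In epicardial cells 22 of the 29 chains were higher than the mean of the other classes and 2 were lower, beside 18.9% of all genes called higher and 12.5% lower. In fibroblasts 24 were higher and 1 lower (all genes: 13.4% and 8.32%), and in valve mesenchyme 20 were higher and 3 lower (20% and 13.7%). Mural cells had 16 higher and 1 lower (10.3% and 5.08%). The median log2 difference of the chains was 1.94 in epicardial cells, 1.88 in fibroblasts, 1.72 in valve mesenchyme and 1.13 in mural cells, while that of all genes lay between -0.0053 and 0.016. In the endothelial classes the balance turned: 4 chains were higher and 17 lower in coronary endothelial cells (13.8% and 12.3%), and 8 were higher and 12 lower in endocardial cells (21.7% and 16.3%). Their medians were -2.11 and -1.71. In cardiomyocytes 3 chains (Col2a1, Col4a5 and Col12a1) were higher and 22 lower (31.8% and 31.5%). In macrophages no chain was higher by edgeR, at an unadjusted p under 0.05 or by DESeq2, and 16 were lower (19.7% and 21%).

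**Figure D2:**
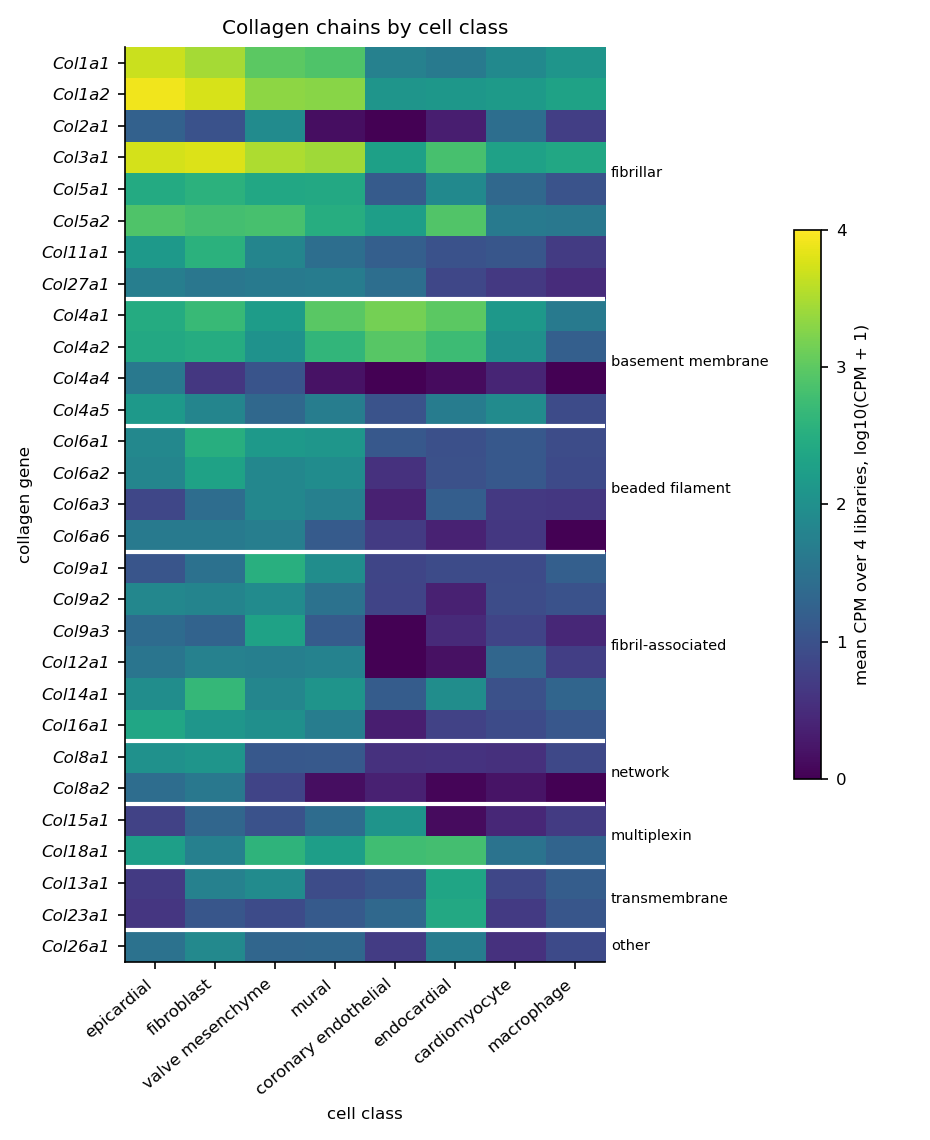
Mean level of each collagen chain that passed the filter (rows, grouped by family) in the 8 cell classes (columns), on a log10 scale of mean CPM + 1 over 4 libraries. Col1a2, Col3a1 and Col1a1 form a bright block from epicardial to mural cells, while Col4a1, Col4a2 and Col18a1 are brightest in the endothelial classes.

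A stricter question is which chains were above every other single class. This held for 13 chain and class pairs when the largest p over the pairwise tests was adjusted over all genes. Fibroblasts had 4 (Col11a1, Col14a1, Col6a1 and Col6a2), beside 0.267% of all genes. Valve mesenchyme had 3 (Col2a1, Col9a1 and Col9a3, beside 1.07%). Epicardial cells had 2 (Col16a1 and Col4a4, beside 2.18%), as had coronary endothelial cells (Col15a1 and Col4a2, beside 1.02%) and endocardial cells (Col13a1 and Col23a1, beside 1.46%). Mural cells, cardiomyocytes and macrophages had none by edgeR, also none at an unadjusted p under 0.05, beside 0.298%, 8.97% and 6.5% of all genes, and DESeq2 was not run on these pairs.

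The fibrillar chains of types I and III made up most of the collagen, and Col1a1, Col1a2 and Col3a1 together gave 63.1% of all collagen UMIs. Col1a2, the α2 chain of type I, was at 6487, 6372, 12729 and 6777 CPM in epicardial cells. In fibroblasts it was at 3533, 5241, 6228 and 7738 CPM, so that CKO E14.5 fibroblasts reached the epicardial range. Valve mesenchyme held 1500.0, 1894, 2651 and 2275 CPM and mural cells 2285.5, 2367, 1498 and 1611 CPM of Col1a2, overlapping ranges. Cardiomyocytes were at 68.4, 128, 258 and 136 CPM and macrophages at 153, 66.0, 359 and 232 CPM. When each cell was thinned to 500 UMIs, a Col1a2 UMI was found in 89.9%, 88.8%, 96.7% and 92.1% of epicardial cells and in 76.7%, 86.3%, 89.5% and 91.6% of fibroblasts. The unthinned shares were 97.7% to 98.9% and 93.8% to 97.4%. The background share, in macrophages, was 3.45% to 7.14% after thinning and 8.82% to 15% before it.

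Col1a1, the α1 chain of type I, was at 3455, 3476.5, 6893 and 5125 CPM in epicardial cells and at 1715, 2759, 2578 and 4329 CPM in fibroblasts. Valve mesenchyme had 703.5, 954, 1142 and 1085 CPM of Col1a1 and macrophages 106, 36.7, 143.5 and 190.5 CPM. Its UMIs stood to those of Col1a2 in a ratio of 0.533 to 0.756 in epicardial cells, 0.414 to 0.560 in fibroblasts, 0.431 to 0.504 in valve mesenchyme and 0.369 to 0.470 in mural cells. These ratios of 3′ tags are not a ratio of protein chains, which in type I collagen favours α1.

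Col3a1 encodes the single chain of type III collagen, the partner of type I in pliable tissue. It was at 5074, 5174, 7057 and 4489 CPM in epicardial cells, at 5992, 7346, 6524 and 4911 CPM in fibroblasts and at 3475, 3656, 3411 and 2545 CPM in valve mesenchyme. Mural cells had 3505, 3488, 1950.0 and 2005 CPM, with both E14.5 libraries below both E13.5 libraries. Endocardial cells had 796, 688, 902 and 367 CPM of Col3a1, above the macrophages (444, 122, 296 and 149 CPM) in each library. Cardiomyocytes had 132, 221, 302 and 118 CPM. The ratio of Col3a1 to Col1a2 was 0.554 to 0.812 in epicardial cells, 1.12 to 2.32 in valve mesenchyme and 3.09 to 9.46 in endocardial cells, with no overlap between these 3 ranges. In endocardial cells Col1a2 was at 84.2, 112.5, 207.5 and 119 CPM, against 153, 66.0, 359 and 232 CPM in macrophages. The endocardial ratio thus has a denominator in the background range. Other classes fell between or across the 3 ranges, with mural cells (1.245 to 1.53) inside the range of valve mesenchyme. In fibroblasts the ratio was 1.70, 1.40, 1.05 and 0.635, lower in the CKO library at each stage and lower at E14.5 in each genotype. The libraries took the same order in valve mesenchyme (2.32, 1.93, 1.29 and 1.12), mural cells (1.53, 1.47, 1.30 and 1.245) and endocardial cells (9.46, 6.11, 4.345 and 3.09). Where both chains were at low levels, in cardiomyocytes (1.93, 1.73, 1.17 and 0.871) and macrophages (2.91, 1.85, 0.825 and 0.644), the order was again the same. Epicardial cells differed, with 0.782, 0.812, 0.554 and 0.662, higher in the CKO library at each stage. The part of free RNA in these orders was not tested.

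**Figure D3:**
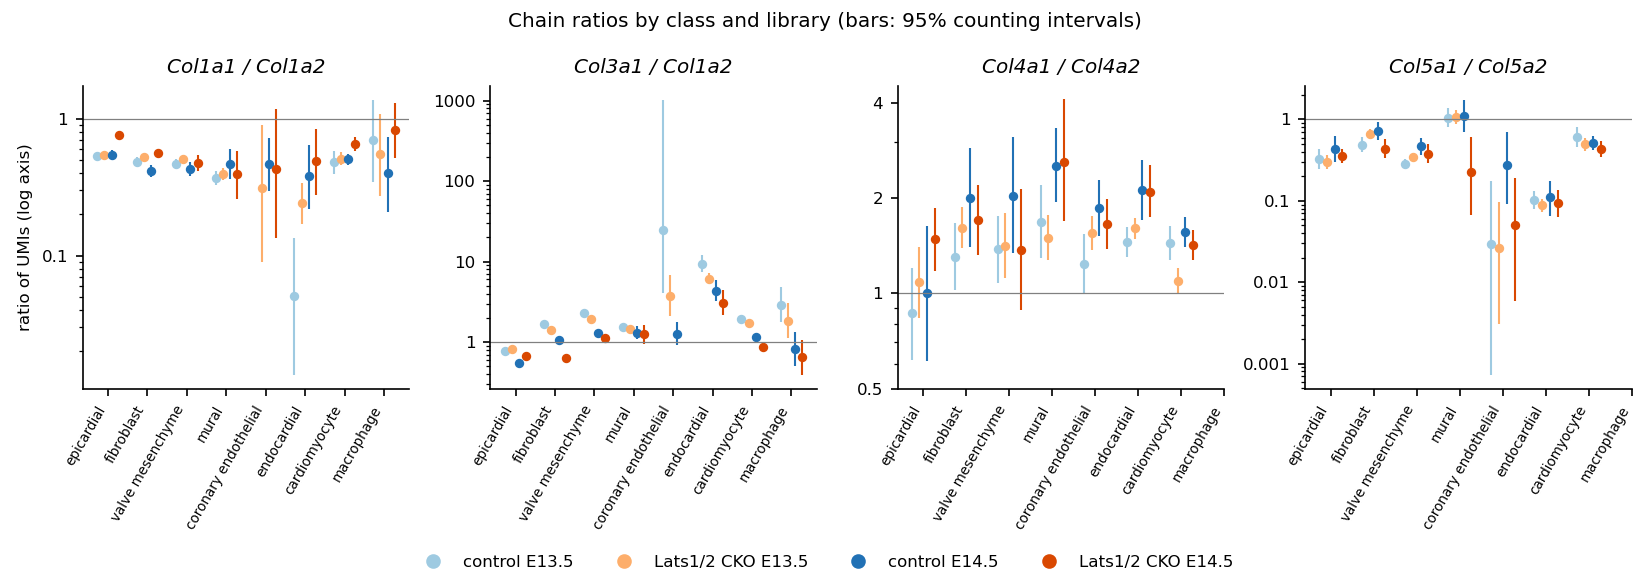
Ratio of UMIs for 4 pairs of chains (panels, log axis) in each class, with 1 point per library, colour for genotype and stage, and bars for the exact 95% counting interval. The Col3a1 to Col1a2 ratio lies below 1 in every epicardial library and at 3.09 or above in every endocardial library. Endocardial Col1a2 overlaps the macrophage background.

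The window upstream of Col3a1 is shown because it holds both an A/T-rich TATAAA element and CATTCC, the reverse complement of GGAATG, the core bound by TEAD factors, through which YAP acts on DNA. It covers the 250 bases before the gene's start at chr1:45311288-45311537 on the plus strand (GRCm38.p6, RefSeq), with both matches in capitals, CATTCC beginning 168 and TATAAA 117 bases before the start.
Col3a1: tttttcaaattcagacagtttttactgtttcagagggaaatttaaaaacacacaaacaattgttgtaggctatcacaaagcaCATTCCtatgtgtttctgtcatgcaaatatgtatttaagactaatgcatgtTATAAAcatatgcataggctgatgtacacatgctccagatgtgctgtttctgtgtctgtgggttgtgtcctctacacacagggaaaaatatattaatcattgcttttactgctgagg
Searched on both strands, GGAATG or CATTCC occurred in 12.6% of 32851 windows of this length and in 4 of the 35 collagen genes with a window (Col18a1, Col20a1, Col3a1 and Col6a2). TATAAA or TTTATA occurred in 12.4% of windows and in 5 of the 35 collagen genes. A match describes these letters and shows no binding.

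Types V and XI regulate fibril width. Col5a2 was spread widely, with 780.0 CPM ± 95.9 (SD, n = 4) in epicardial cells, 689.7 ± 51.6 in valve mesenchyme, 634 ± 80.0 in fibroblasts and 808 ± 142 in endocardial cells, levels that overlapped. In endocardial cells it was the second most abundant chain, at 691, 885, 687 and 969 CPM. Its partner Col5a1 was at 71.4 to 91.1 CPM there, giving a Col5a1 to Col5a2 ratio of 0.088 to 0.110, against 0.436 to 0.721 in fibroblasts. Col5a1 was highest in fibroblasts, at 263, 443, 439.9 and 316 CPM. Col3a1 and Col5a2 are neighbours on chromosome 1, tail to tail with 24614 bases between them, and across the 8 classes their log2 levels had a Pearson correlation of 0.79, a description over classes that share libraries.

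Col11a1, the α1 chain of type XI collagen, was at 168, 377, 209 and 697 CPM in fibroblasts. Epicardial cells were next, at 143, 151, 86.6 and 195.5 CPM, and in each library fibroblasts were higher. Valve mesenchyme held 51.6 to 78.2 CPM, and macrophages 0 to 8.97. Fibroblasts lay 4.08 (SE 0.189) above the mean of the other classes on the log2 scale, and 1.17 above epicardial cells (adjusted p = 0.00186, edgeR). The gap over epicardial cells was narrowest in control E13.5.

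Col2a1, the chain of type II collagen known from cartilage, was above every other class in valve mesenchyme, at 66.0, 123, 81.1 and 63.2 CPM. Cardiomyocytes came second, at 40.9, 33.05, 12.95 and 22.01 CPM, above the macrophages (13.3, 4.89, 0 and 0 CPM) in each library. Valve mesenchyme lay 4.74 (SE 0.288) above the mean of the other classes in log2 units and 1.27 above cardiomyocytes (adjusted p = 3.27e-05, edgeR). Col2a1 passed the low-count filter through valve mesenchyme, so this p-value is descriptive. Coronary endothelial cells had no Col2a1 UMI among 987166. With a floor of 3 counts over the 4 libraries (3.04 CPM), valve mesenchyme was at least 30.3-fold higher than coronary endothelial cells. Col27a1, a fibrillar chain also known from cartilage, stood at 37.4 to 49.95 CPM on average in epicardial, fibroblast, valve and mural cells. Col24a1, Col11a2 and Col5a3 did not pass the filter, with 48, 26 and 16 UMIs.

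Among the basement membrane chains, Col4a1 and Col4a2, which together form the sheet found under nearly all epithelia and endothelia, led in the coronary endothelium. Col4a1 was at 1065, 1521, 1479 and 1774 CPM in coronary endothelial cells, at 871, 1069, 1023 and 966 CPM in endocardial cells and at 369, 628, 1483 and 1336.5 CPM in mural cells. Cardiomyocytes had 121, 119, 159 and 146 CPM of Col4a1. Col4a2 was at 861, 979, 796 and 1071 CPM in coronary endothelial cells and at 599, 665, 483 and 461 CPM in endocardial cells, lower in each library. Coronary endothelial cells lay 2.44 (SE 0.128) above the mean of the other classes for Col4a2 and 0.63 above endocardial cells (adjusted p = 0.0252, edgeR). The start sites of the pair are 21 bases apart, head to head, on chromosome 8, and their log2 levels had a Pearson correlation of 0.98 across the 8 classes.

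The other type IV pairs had their own pattern. Col4a4, a chain of the α3α4α5 sheet known from kidney, was at 34.9, 35.5, 43.3 and 45.1 CPM in epicardial cells. These values came from 11, 23, 5 and 21 UMIs. Valve mesenchyme was at 7.02 to 12.7 CPM. Epicardial cells lay 5.39 (SE 0.478) above the mean of the other classes and 1.84 above valve mesenchyme (adjusted p = 0.00322, edgeR). No library of another class was above 12.7 CPM. Col4a4 thus passed the low-count filter through the class where it is high, and this p-value is descriptive. No Col4a4 UMI was seen in coronary endothelial cells or macrophages, and epicardial cells were at least 12.8-fold and 11.2-fold higher than these. Col4a3, which did not pass the filter with 66 UMIs, was also highest in epicardial cells, at 12.7, 13.9, 8.66 and 19.3 CPM, and at most 4.28 CPM in any library of another class. The 71 bases between the starts of Col4a4 and Col4a3 are shown because this pair shares one upstream stretch. They lie at chr1:82586850-82586920 (GRCm38.p6, RefSeq), are written on the minus strand in the direction of Col4a4, have 69% G and C, and hold none of the searched motifs, so no letter is in capitals.
Col4a4 to Col4a3: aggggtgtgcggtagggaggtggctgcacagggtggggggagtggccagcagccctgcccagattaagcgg
Across the 8 classes the pair's log2 levels had a Pearson correlation of 0.95.

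Col4a5, the α5 chain of the α3α4α5 sheet, was highest in epicardial cells (137, 137, 121 and 187 CPM). Cardiomyocytes were next, at 97.9, 72.5, 79.2 and 87.9 CPM, and lay 1.73 (SE 0.143) above the mean of the other classes in log2 units (adjusted p = 4.375e-15, edgeR). Macrophages had 2.45 to 10.3 CPM. Its head-to-head neighbour on the X chromosome, Col4a6, did not pass the filter with 422 UMIs, and in cardiomyocytes stood at 11.8 to 17.1 CPM, a Col4a5 to Col4a6 ratio of 5.72 to 7.43.

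Type VI collagen, which links cells to the fibrils around them, was led by fibroblasts. Col6a1 was at 281, 347, 339.7 and 308 CPM in fibroblasts and at 133 to 158 CPM in valve mesenchyme, without overlap. Col6a2 was at 185, 217, 205 and 193 CPM in fibroblasts and at 42.5 to 119.9 CPM in mural cells, the next class. Fibroblasts lay 3.67 (SE 0.162) and 3.499 (SE 0.174) above the mean of the other classes for this pair, and 1.17 and 1.40 above the next class (adjusted p = 3.12e-06 and 4.69e-05, edgeR). The third chain, Col6a3, was higher elsewhere, in valve mesenchyme (46.5, 64.9, 81.1 and 91.3 CPM) and mural cells (47.3, 80.8, 51.9 and 34.3 CPM), than in fibroblasts (20.5, 28.8, 43.55 and 11.6 CPM). Valve mesenchyme and mural cells had overlapping ranges over the libraries, with a fitted gap of 0.0495 in log2 units. The Col6a3 to Col6a1 ratio was 0.0375 to 0.128 in fibroblasts and 0.337 to 0.609 in valve mesenchyme. Col6a6, a longer chain related to Col6a3, averaged 42.3 to 49.8 CPM in epicardial, fibroblast and valve cells and had no UMI in macrophages, where valve mesenchyme was at least 14.1-fold higher. Col6a4 and Col6a5 had 2 and 21 UMIs.

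Fibril-associated chains differed in the class where they were highest, which was fibroblasts for Col14a1, valve mesenchyme for the type IX chains and epicardial cells for Col16a1. Col14a1, which binds the surface of type I fibrils, was at 314, 459, 492 and 589 CPM in fibroblasts, against 33.09, 106, 193 and 137 CPM in mural cells, the next class. Fibroblasts lay 3.63 (SE 0.136) above the mean of the other classes and 2.19 above the next (adjusted p = 8.47e-11, edgeR). The type IX chains, which coat type II fibrils in cartilage, were highest in valve mesenchyme. Col9a1 was at 382, 449, 223 and 288 CPM and Col9a3 at 202, 255, 177 and 165 CPM there. Valve mesenchyme lay 4.58 (SE 0.153) and 5.56 (SE 0.179) above the mean of the other classes and 1.65 and 3.15 above the next (adjusted p = 2.83e-08 and 2.50e-13, edgeR). Col9a3 passed the low-count filter through this class, so its p-value is descriptive. Coronary endothelial cells had no Col9a3 UMI, so valve mesenchyme was at least 72.2-fold higher. The third chain, Col9a2, was less selective, with 53.3 to 119.8 CPM in valve mesenchyme, 38.7 to 105 in epicardial cells and 30.8 to 96.3 in fibroblasts, overlapping ranges.

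Col16a1, found near fibrils and basement membranes, was highest in epicardial cells, at 148 to 407 CPM, with control E14.5 the highest, against 119, 126, 148 and 104 CPM in fibroblasts. Epicardial cells lay 3.59 (SE 0.206) above the mean of the other classes and 0.74 above fibroblasts (adjusted p = 0.0431, edgeR). Col12a1, a chain that binds type I fibrils in tendon and ligament, was at 104, 72.4, 22.2 and 34.3 CPM in mural cells, at 20.5 to 104 in fibroblasts and at 14.2 to 23.6 in cardiomyocytes. It had no UMI in coronary endothelial cells, and mural cells were at least 25-fold higher. The other fibril-associated rows (Col19a1, Col20a1, Col22a1 and the joined Col20a1 row) had 8 to 68 UMIs.

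The network chains of type VIII, known from vessel walls and the cornea, were shared by epicardial cells and fibroblasts. Col8a1 was at 78.1, 117, 87.1 and 204 CPM in fibroblasts and at 85.7, 117, 8.66 and 199.8 CPM in epicardial cells, where control E14.5 rested on 1 UMI. Col8a2 was at 20.5, 56.5, 39.2 and 42.4 CPM in fibroblasts, 5.05 (SE 0.416) above the mean of the other classes in log2 units (adjusted p = 9.51e-14, edgeR). The highest mean in any further class was 11.97 CPM for Col8a1 (mural cells) and 5.72 CPM for Col8a2 (valve mesenchyme).

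Multiplexins carry endostatin-like domains at their ends. Col15a1 marked the coronary endothelium, at 88.3, 159, 178 and 43.3 CPM, against 16.8 to 34.3 CPM in mural cells and 0, 1.22, 0 and 0 CPM in endocardial cells. Coronary endothelial cells lay 4.50 (SE 0.299) above the mean of the other classes and 2.40 above the next (adjusted p = 5.56e-05, edgeR). Col15a1 passed the low-count filter through this class, so the p-value is descriptive. Col18a1 did not separate the endothelia: it was at 607, 609, 565 and 627.5 CPM in coronary endothelial and at 675, 687, 449 and 707 CPM in endocardial cells.

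Of the transmembrane chains, Col13a1 and Col23a1 were highest in endocardial cells, while Col17a1 had 40 UMIs and did not pass the filter. Col13a1 was at 241, 221, 207.5 and 224 CPM in endocardial cells, 3.79 (SE 0.150) above the mean of the other classes and 1.56 above the next (adjusted p = 4.41e-09, edgeR). That next class was valve mesenchyme, at 80.3, 69.2, 127.5 and 56.2 CPM. Fibroblasts had 34.7 to 84.2 CPM, and Col13a1 was called higher than the mean of the other classes in both. Col23a1 was at 194, 222, 245 and 365 CPM in endocardial cells, while no library of another class exceeded 44.1 CPM. Endocardial cells lay 5.24 (SE 0.212) above the mean and 3.62 above the next class (adjusted p = 3.30e-10, edgeR). Col23a1 passed the low-count filter through this class, so the p-value is descriptive. In thinned cells a Col23a1 UMI was found in 11.5%, 12.4%, 12.7% and 13.8% of endocardial cells (unthinned 21.6% to 37.6%) and in 0% to 0.9615% of macrophages (unthinned 0% to 0.9615%). Col25a1, with 154 UMIs below the filter, was also highest in endocardial cells, at 14.9, 16.4, 30.2 and 27.6 CPM. Col26a1, a chain of testis and ovary also called Emu2, was at 90.4, 97.3, 52.3 and 65.5 CPM in fibroblasts, at 59.7, 50.5, 15.09 and 63.5 CPM in endocardial cells and at 1.97 to 3.565 CPM in cardiomyocytes.

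**Figure D4:**
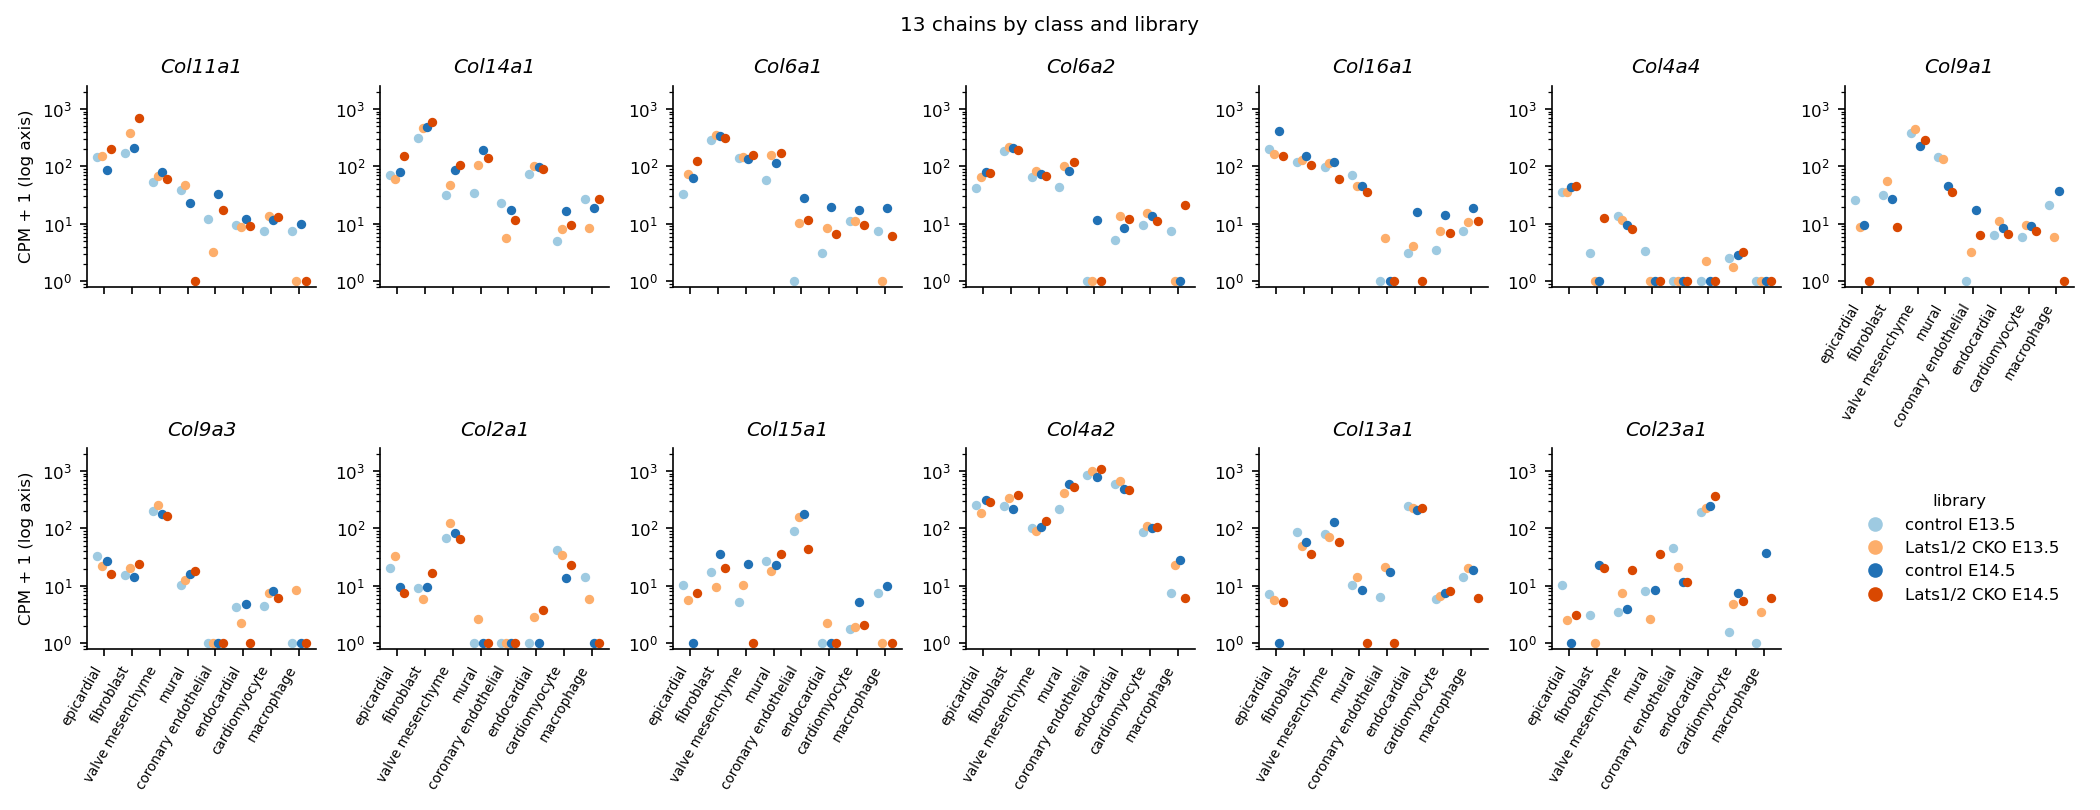
CPM + 1 on a log axis of the 13 chains that were above every other class in 1 class (panels), in the 8 classes (x axis), with 1 point per library and colour for genotype and stage. Points of the 4 libraries lie close together for Col13a1 in endocardial cells (207.5 to 241 CPM) and spread for Col11a1 in fibroblasts (168 to 697 CPM).

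The knockout was compared with the control in a fit of genotype and stage over the 4 libraries of each class, which leaves 1 residual degree of freedom. Per-stage ratios with exact 95% counting intervals describe the libraries and cover counting error only. In fibroblasts 24 chains were tested among 6707 genes, and 1 was higher in the CKO and none lower, beside 0.373% and 0.268% of all genes. That chain was Col11a1. At an unadjusted p under 0.05, 9 chains were higher and none lower, beside 468 of the 6707 genes in either direction. DESeq2 called no chain in either direction. The log2 change was above 0 for 19 of the 24 chains, with a median of 0.36, against -0.0044 for all genes.

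At E13.5, Col11a1 in fibroblasts was at 168 CPM in the control and 377 CPM in the CKO (82 and 314 UMIs). At E14.5 the values were 209 and 697 CPM (48 and 181 UMIs). Both CKO libraries were above both controls, with log2 ratios of 1.16 (counting interval 0.81 to 1.53) and 1.73 (1.27 to 2.23). The fit gave 1.44 (SE 0.273, adjusted p = 0.00306, edgeR). The share of fibroblasts with a Col11a1 UMI after thinning was 7.62%, 17.5%, 11.8% and 30.2% (unthinned 23.8%, 44.7%, 21.6% and 48.0%), while no thinned macrophage had one. The call was lost with clusters in place of gates (1.70, adjusted p = 0.326 by edgeR's quasi-likelihood test) and with DESeq2 (1.45, DESeq2 adjusted p = 0.574). It was lost without the stage term (1.52, adjusted p = 0.771, edgeR). The fits that left out a library had no stage term either and compared genotype alone. They gave 1.32 without control E13.5, 1.75 without control E14.5 and 0.97 without CKO E14.5. Differences between these values and the main fit cannot be put down to the library removed. Over all alternatives the adjusted p of edgeR or DESeq2 ranged from 3.55e-05 to 0.999. The sign was positive in each.

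The make-up of the fibroblast gate also moved with genotype. Cells with a UMI of Dpp4 or Mfap5, both on the gate's marker list, were 13.8%, 42.6%, 15.03% and 46.4% of gated fibroblasts. Neither gene was particular to fibroblasts. Dpp4 was at 394, 518, 346 and 516 CPM in epicardial cells, against 65.7, 345, 135 and 535 CPM in fibroblasts. Mfap5 was at 193 to 309 CPM in endocardial cells, against 6.16 to 88.6 CPM in fibroblasts. A Dpp4 UMI could also meet the gate's need for Tcf21, Ogn or Dpp4. The gated fibroblasts with a Dpp4 or Mfap5 UMI carried more Col11a1, at 364, 477, 384 and 861 CPM, against 135, 241, 181.5 and 482 CPM in the cells without. Among the cells without, the CKO had log2 ratios over the control of 0.84 (0.34 to 1.35) in the E13.5 pair and 1.40 (0.77 to 2.06) in the E14.5 pair. Among the cells with, the E13.5 pair had a ratio of 0.37 (-0.20 to 1.035), an interval that includes 0, and the E14.5 pair 1.11 (0.31 to 2.155). Cells with a Dpp4 or Mfap5 UMI were also deeper (median UMIs 2184, 3074.5, 1088 and 1489, against 1736, 1840, 1035 and 920). A cell without such a UMI may still express either gene, so the split does not hold the make-up constant. Whether the changed make-up accounts for the Col11a1 difference was not tested.

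The window upstream of Col11a1 is printed because this was the chain called. It covers the 250 bases before the start at chr3:114030290-114030539 on the plus strand (GRCm38.p6, RefSeq), and the capitals mark ATTGG, the reverse complement of the CCAAT box, beginning 79 bases before the start.
Col11a1: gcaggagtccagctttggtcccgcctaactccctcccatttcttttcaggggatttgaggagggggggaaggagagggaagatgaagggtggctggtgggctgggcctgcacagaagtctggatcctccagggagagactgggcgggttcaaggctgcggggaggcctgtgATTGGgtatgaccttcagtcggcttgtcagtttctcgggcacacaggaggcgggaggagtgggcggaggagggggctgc
CCAAT or ATTGG occurred in 33.8% of 32851 windows and in 13 of the 35 collagen genes. The letters GGAATG and CATTCC are not in this window.

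**Figure D5:**
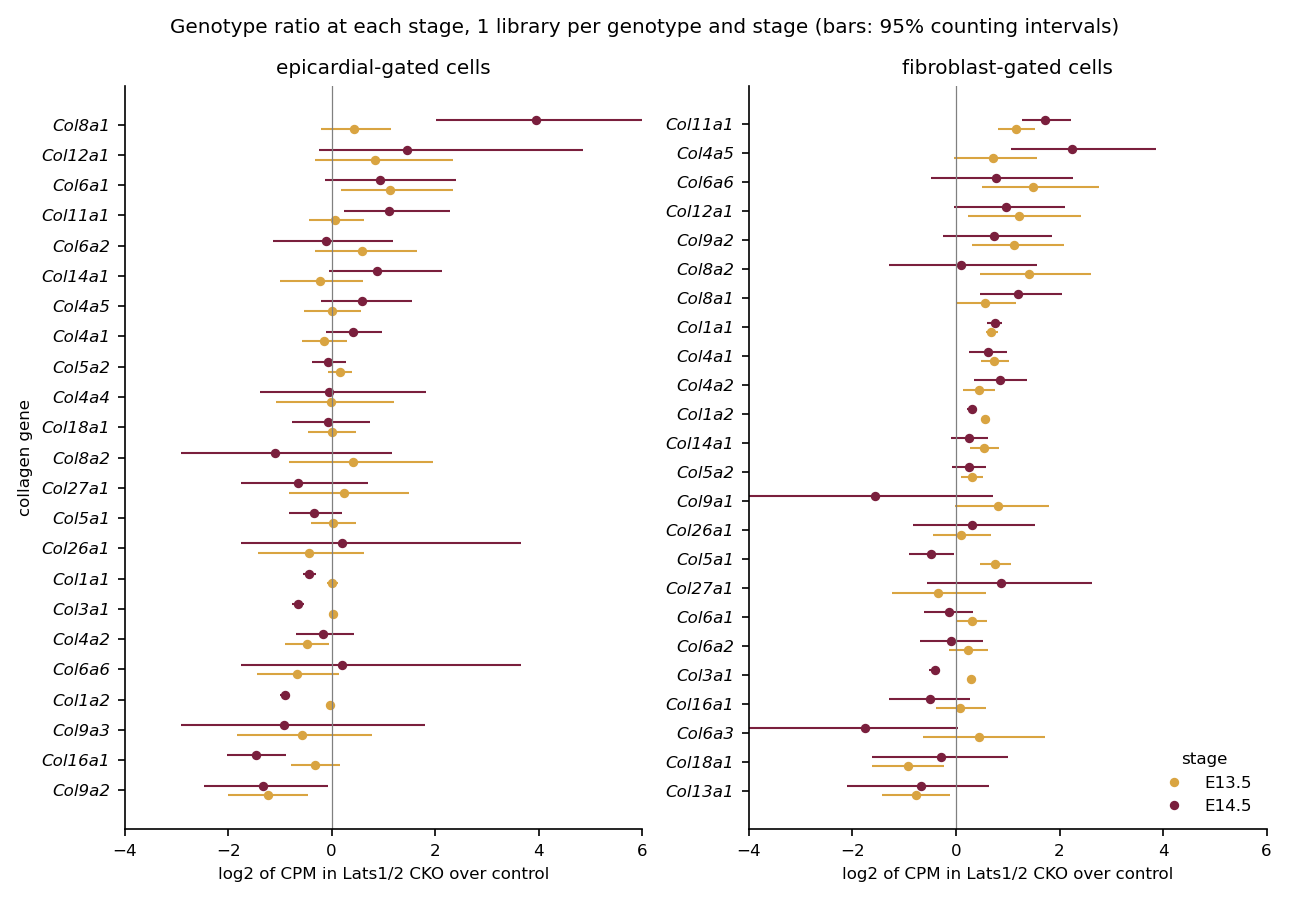
Log2 ratio of CPM in the CKO over the control for each tested chain (rows) in epicardial cells and fibroblasts, 1 point per stage, with bars for the exact 95% counting interval (bars that reach the axis limit are cut off there). Col11a1 lies at 1.16 and 1.73 in fibroblasts, while the epicardial chains lie on both sides of 0.

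The other fibroblast chains whose counting intervals lay above 0 at both stages were Col1a1, Col1a2, Col4a1, Col4a2 and Col8a1, and none lay below 0 at both. Col1a1 had log2 ratios of 0.69 and 0.75 and a fitted 0.73 (SE 0.259, adjusted p = 0.311, edgeR). Col4a1 was at 325, 544, 427 and 655 CPM (fitted 0.70, SE 0.260, adjusted p = 0.382). Col8a1 had ratios of 0.57 and 1.21 (fitted 0.87, adjusted p = 0.311). None of these passed the test. The type V chains, which share fibril cores with Col11a1, did not pass the test. For Col5a1 the E13.5 ratio was 0.75 and the E14.5 ratio -0.48. Col5a2 was at 536, 664, 610 and 724 CPM, with ratios of 0.31 (0.094 to 0.53) and 0.25 (-0.075 to 0.57) and a fitted 0.29 (SE 0.256, adjusted p = 0.982, edgeR). The Col11a1 to Col5a1 ratio ran from 0.475 to 2.21 over the 4 libraries.

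In epicardial cells, where Wt1 itself is active, 23 chains were tested among 7170 genes and none was called, beside 0.0837% of all genes higher and 0.0139% lower. At an unadjusted p under 0.05, 2 chains were higher and 2 lower, beside 460 of the 7170 genes in either direction. DESeq2 called no chain, and the median log2 change of the chains was -0.09. Col9a2 was at 105, 44.7, 95.25 and 38.7 CPM, with both CKO libraries below both controls, ratios of -1.23 (-2 to -0.46) and -1.33 (-2.46 to -0.07) and a fitted change of -1.25 (SE 0.394, adjusted p = 0.604, edgeR). Col9a1 was at 25.4, 7.71, 8.66 and 0 CPM, from 8, 5, 1 and 0 UMIs, and was too low to test. For Col8a1 at E14.5 the control rested on 1 UMI against 93, a log2 ratio of 3.95 (2.02 to 9.85). Col1a1, Col1a2 and Col3a1 had E13.5 log2 ratios of 0.01, -0.03 and 0.03, with counting intervals that include 0. Their E14.5 ratios were -0.43, -0.91 and -0.65, with intervals below 0. The E14.5 control epicardial sum came from 60 cells.

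In the other classes no chain was called by genotype by edgeR or DESeq2. The share of all genes called at an adjusted p under 0.05 was 0.0416% higher and 0.0208% lower in valve mesenchyme. It was 0.141% and 0.106% in mural cells, 0.103% and 0.149% in endocardial cells and 0.0472% and 0% in coronary endothelial cells. In cardiomyocytes and macrophages it was 0% in either direction. At an unadjusted p under 0.05, all genes are counted in both directions together. Valve mesenchyme had 2 of 25 chains higher (483 of 9611 genes), and mural cells 2 of 19 higher (219 of 5655). Endocardial cells had 1 of 15 higher and 1 lower (354 of 8707), and coronary endothelial cells none of 7 (181 of 4237). Cardiomyocytes had none of 28 (548 of 14409) and macrophages 2 of 3 lower (192 of 3856).

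Between stages, no fibroblast chain was called of 24 tested, and none by DESeq2, beside 1.33% of all genes higher and 0.0447% lower at E14.5. At an unadjusted p under 0.05, 6 chains were higher and 0 lower, beside 633 of 6707 genes in either direction. The lowest adjusted p was 0.1905, for Col1a2, which was higher at E14.5 in both genotypes by 0.82 and 0.56 in log2 units. Epicardial cells, valve mesenchyme, coronary endothelial cells and macrophages had no call either, and none by DESeq2. All genes called in these classes, in this order, were 0.823%, 0.884%, 1.16% and 0.934% higher and 0.0139%, 0.052%, 0.0236% and 0.0259% lower. Cardiomyocytes had no chain and 0% of all genes called by edgeR, and 1 chain higher by DESeq2. At an unadjusted p under 0.05, epicardial cells had 7 chains higher and 1 lower, beside 515 of 7170 genes in either direction. Valve mesenchyme had 5 higher and 1 lower (1111 of 9611), and coronary endothelial cells 1 higher (439 of 4237). Macrophages had 2 higher (373 of 3856), and cardiomyocytes 3 higher and 1 lower (1673 of 14409).

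Mural cells were the exception, with 2 chains higher and 1 lower at E14.5 of 19 tested, beside 2.48% and 1.34% of all genes. Col4a1 went from 369 to 1483 CPM in controls and from 628 to 1336.5 CPM in the CKO, a fitted 1.58 (SE 0.311, adjusted p = 4.17e-05, edgeR). Col14a1 (33.09, 106, 193 and 137 CPM) was higher by 1.51 (adjusted p = 0.0261) and Col9a1 (147, 135, 44.5 and 34.3 CPM) lower by a fitted -1.77 (adjusted p = 0.0409). The Col14a1 call held in 1 of 12 alternatives and the Col9a1 call in none. The E14.5 mural sums rested on 54 and 34 cells. Coronary endothelial markers moved with the Col4a1 difference: the 8 markers summed to 9.45, 85.9, 1045.5 and 565 CPM in mural cells, with 1 marker at 0 in all libraries. The 10 pan-endothelial markers, none at 0, summed to 208, 264, 1305 and 788 CPM. With clusters in place of gates, the Col4a1 difference was 0.02 (adjusted p = 0.994, edgeR). The call was also lost without CKO E14.5, in a fit of stage alone. Whether endothelial RNA accounts for the Col4a1 difference was not tested.

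In endocardial cells Col1a1 was higher at E14.5, 1 chain of 15, beside 1.15% of all genes higher and 0.0919% lower. It was at 4.26, 27.4, 79.2 and 58.0 CPM, a fitted 2.22 (SE 0.532, adjusted p = 0.0477, edgeR). The call held in 9 of 13 alternatives and was lost with DESeq2 (2.57, DESeq2 adjusted p = 0.381). It was lost with the stricter gate (2.37, adjusted p = 0.202, edgeR) and with stage alone (2.02, adjusted p = 0.266, edgeR). It was also lost without control E13.5 (1.38), while without CKO E13.5 the change was 3.97, both in fits of stage alone. In each library Col1a1 was below the level in macrophages (106, 36.7, 143.5 and 190.5 CPM), the class read here as background. It was also below the level in cardiomyocytes (32.8, 65.3, 131 and 89.1 CPM).

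Collagen chains need a set of enzymes and chaperones before they leave the cell, and 55 genes of folding, secretion, trimming, cross-linking, fibril assembly, binding and breakdown were followed beside the chains. Of these, 41 were tested in the class fit: 33 were higher and 3 lower in epicardial cells (all genes: 18.9% and 12.5%). There were 31 higher in fibroblasts (13.4%), 31 in mural cells (10.3%) and 33 in valve mesenchyme (20%), with none lower in these 3 classes (8.32%, 5.08% and 13.7%). Endocardial cells had 12 higher and 13 lower (21.7% and 16.3%) and coronary endothelial cells 6 and 19 (13.8% and 12.3%). Cardiomyocytes had 4 and 28 (31.8% and 31.5%) and macrophages 1 and 32 (19.7% and 21%). The gene with the highest difference of its role in fibroblasts was Plod2 for folding, Sec24d for secretion, Adamts2 for trimming, Loxl1 for cross-linking, Bgn for fibril assembly, Ddr2 for binding and Timp3 for breakdown. Serpinh1, the collagen chaperone HSP47, was at 3067, 3069.5, 2805.5 and 2284 CPM in epicardial cells and at 2278, 2643, 1859.7 and 2765.5 CPM in fibroblasts, against 73.4 to 153 in macrophages. Loxl1, a cross-linking oxidase, lay 3.78 (SE 0.1798) above the mean of the other classes in epicardial cells and 2.755 (SE 0.2067) in fibroblasts. Ddr2, a receptor for fibrillar collagen, was at 26.7 to 53.9 CPM in fibroblasts and 17.1 to 74.2 in mural cells and had no UMI in coronary endothelial cells.

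By genotype, 1 of the 38 genes of this list tested in fibroblasts was called, beside 0.373% of all genes higher and 0.268% lower. Plod2, the lysyl hydroxylase that prepares collagen ends for cross-linking, was at 197, 305, 209 and 828 CPM, with both CKO libraries above both controls. The fit gave 1.28 (adjusted p = 0.0245, edgeR), and the adjusted p ranged from 0.000819 to 1 over the alternatives. The call was lost with DESeq2, with clusters, with the stricter gate and with deeper cells. It was also lost in the fits without CKO E14.5, where the change was 0.56, and without either control library. Those fits had no stage term, so the loss cannot be put down to the library removed. In epicardial cells, at 479.5, 376, 424 and 664 CPM, Plod2 did not pass (0.11, adjusted p = 0.978).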

How the data were processed

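The deposited file was 1 table of raw UMI counts per gene and cell, merged by the authors from 4 Drop-seq libraries; the values were whole numbers. STAR, Picard and the mm10 build are named in the submitters' processing notes, without versions. Cell names ending in wt or mut were matched to the control and CKO labels of each stage. The deposited cells had a minimum of 500 genes in the E13.5 libraries and 300 in the later ones. Cells with at least 500 UMIs, 300 genes and at most 20% mitochondrial UMIs were kept, leaving 11163902, 17073173, 8569238 and 9114173 UMIs. Scrublet marked 0 to 7 cells per library and so did not work here, and no doublets were removed.

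A gate needed at least 3 UMIs of at least 2 markers of its class, a share at least 4 times the mean share of all cells and 2 times that of the runner-up. Cardiomyocytes needed 2% of UMIs from their markers. The fibroblast gate also needed a UMI of Tcf21, Ogn or Dpp4. Lum and Dpt were left out of its list after their levels by cluster had been seen. CPM is a class's count per 1000000 UMIs of that class and library. The 117 gate markers were left out of testing. edgeR 4.0.16 (R 4.3.3, TMM, filterByExpr) fitted class and library over 32 summed columns, and genotype and stage within each class, with Benjamini-Hochberg adjustment over all genes and a threshold of 0.05. Per-stage log2 ratios use a prior of 0.5 counts and exact 95% binomial intervals, which cover counting error only. Nothing in the sources says that libraries came from separate litters, so p-values apply to these libraries and do not measure variation between litters. Alternatives were DESeq2 1.42.0, other size factors, no count filter, a stricter gate, clusters made without collagen genes (scanpy 1.11.5), at least 1000 UMIs per cell, removal of the 5% highest doublet scores, a single-factor design and leaving out each library. Genotype and stage fits without 1 library were of 1 factor alone, since the other term was dropped as well. A fibroblast gate without Dpp4 and Mfap5 was added after the data were seen. On simulated counts the class fit recovered 86% of 2-fold and 99% of 4-fold changes among 9730 genes in fibroblasts, with 13 false calls. The genotype fit recovered 29% and 93% among 4617 genes in fibroblasts, with 4 false calls. In epicardial cells it recovered 23% and 89% among 4860 genes, with 4 false calls. All genes of a run had the common dispersion of its fit. Changes were put only into genes above a minimum count, so recovery of low-count chains was not measured.

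Named were all members by count, and with values in every library the 3 highest chains of each class, the chain with the largest class difference of each family, and chains called or changed at least 2-fold in 1 direction at both stages in epicardial cells or fibroblasts. Other members were named after their values were seen. The members and lists were chosen with earlier results of these data known. Of the 45 rows, 43 matched a gene of the reference annotation by symbol. RefSeq promoter windows (GRCm38.p6) were used for sequences.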

Additional observations from a re-analysis of the deposited data

Results flagged for a closer look

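For 15 chain and class pairs the log2 ratio of CKO to control had opposite signs at the 2 stages, with the exact 95% counting interval off 0 at both. With 1 library per genotype and stage, the difference between stages was not tested for any of them. The first value of each pair is E13.5 and the second E14.5. In fibroblasts these were Col3a1, the type III chain (0.29 and -0.41), and Col5a1, a fibril-core chain (0.75 and -0.48). In valve mesenchyme they were Col1a2 (0.34 and -0.22) and Col3a1 (0.073 and -0.42). In mural cells it was Col5a1 (0.35 and -1.78). In coronary endothelial cells they were Col15a1 (0.81 and -1.97) and Col1a2 (2.20 and -2.23). The coronary Col1a2 pair rested on 1 against 16 UMIs at E13.5 (interval 0.0503 to 8.13), and control E14.5 stood above the other coronary sums for Col1a1, Col1a2 and Col3a1 (172, 366 and 463 CPM). In endocardial cells it was Col1a2 (0.41 and -0.80).

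Cardiomyocytes held 7 of the 15, with Col14a1 (0.87 and -0.87), Col16a1 (1.28 and -1.16), Col18a1 (0.46 and -0.45), Col1a1 (0.99 and -0.55), Col1a2 (0.90 and -0.93), Col3a1 (0.74 and -1.35) and Col2a1 (-0.31 and 0.76). Of these 7 only Col2a1 had a negative ratio at E13.5. Cardiomyocyte levels of Col1a2 were 68.4, 128, 258 and 136 CPM in the order control E13.5, CKO E13.5, control E14.5 and CKO E14.5.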

How the results depend on the processing

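The count of chains higher in a class, 97 over the 8 classes, was 81 to 107 under the other settings and 87 to 98 when 1 library was left out, but 13 when a chain had to be above the highest other class. In fibroblasts, 1 chain by genotype became 0 with clusters, with DESeq2 and with genotype alone, and 0 to 2 without 1 library each. The genotype and stage fits without 1 library, here and below, were of 1 factor alone. A changed count can therefore not be put down to the library removed. In epicardial cells the count of 0 became 1 with the stricter gate and 0 to 1 without 1 library each, with 1 without control E13.5. By stage in fibroblasts the count of 0 became 0 to 5 without 1 library each, with 4 without CKO E13.5 and 5 without control E14.5. Among single chains and genes, 197 recomputed values stayed on the same side of the threshold, 44 lost their call and none changed sign. For the 13 chain and class pairs above every other class, the difference from the mean of the other classes passed under each of the 10 or 12 alternatives run for it, while the stricter calls themselves were not recomputed under these. No paired analysis was possible by replicate number because the labels give none, and pairing by stage is already part of the genotype fit, which has stage as a term. Depth limits the genotype comparison: the smallest sums were those of mural cells in CKO E14.5 (58362 UMIs from 34 cells), macrophages in control E14.5 (111461 UMIs) and epicardial cells in control E14.5 (115487 UMIs).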
